A study of Mus musculus with 3 samples.

Results

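The genes described here are 40 mouse amino acid transporters of the solute carrier families SLC1, SLC3, SLC7, SLC36, SLC38 and SLC43, measured in macrophages that had met lipid A in 2 separate exposures. They were chosen by name: every gene whose symbol is Slc1a, Slc3a, Slc7a, Slc36a, Slc38a or Slc43a followed by a number and which has a protein-coding transcript, other than Slc7a2 and Slc7a11. All 40 were found in the gene tables, among 22028 protein-coding genes and 55536 genes in all.

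Amino acids cross membranes through carrier proteins. SLC7 light chains carry the amino acids but reach the cell surface as a pair with a glycoprotein heavy chain of the SLC3 family, whereas the SLC1 and SLC38 carriers and the cationic carriers of SLC7 work without such a chain. SLC36 proteins and several SLC38 proteins sit in the lysosome membrane, where amino acids from digested protein leave the organelle and where the kinase complex mTORC1 is switched on by amino acids. In macrophages the supply of arginine, glutamine and cystine feeds nitric oxide, polyamine and glutathione synthesis.

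Polyadenylated RNA was sequenced from 3 samples of macrophages grown from bone marrow of the inbred strain C57BL/6J. Every sample received 100 ng/ml lipid A for 12 h, then a 12 h wash-out, then 100 ng/ml lipid A for 180 min before RNA was taken. Lipid A, the part of bacterial lipopolysaccharide that TLR4 senses, is the agent in the sample descriptions, whereas other label fields name lipoprotein A and class it as a protein. The 3 samples form a single group, all carry the same donor record, and sex and age were not collected; no unexposed cells were analysed here, so no level below can be called raised or lowered by lipid A. Any p-value here thus reflects the scatter among these 3 samples alone, and that scatter may be technical.

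Levels are the deposited TPM, relative transcript abundances corrected for transcript length, which allow genes to be compared within a sample. The libraries of replicates 1, 2 and 3 held 23418690, 36863611 and 37728915 expected counts, of which the 40 genes together took between 0.194% and 0.208%. A count of 0 allows up to 3 counts, which is 0.128, 0.0814 and 0.0795 CPM (counts scaled to library size), and this covers counting error only. All 12 macrophage markers reached 1 TPM in every replicate. Of 6 neutrophil markers, S100a8 and S100a9 did, and the summed level of the 6 was 12.0, 98.5 and 10.8 TPM, highest in replicate 2, while Ly6g was at 0 counts in each library. Among B cell markers 1 of 4 (Cd79b) reached 1 TPM in every replicate and among endothelial markers 1 of 3 (Pecam1). None of 6 T and NK cell, 5 mast cell, 5 erythroid, 5 stromal or 4 dendritic cell markers did. In such bulk samples, fewer cells of a type and less RNA per cell cannot be told apart.

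Of the 40 transporters, 17 had at least 1 TPM in all 3 replicates and are called expressed below. The same threshold was reached by 9749 of 22028 protein-coding genes, or 44.3%. A mean of 100 TPM or more was reached by 3 transporters, Slc3a2, Slc43a2 and Slc7a8, and by 5.85% of protein-coding genes. The median of mean log2(TPM + 1) was 0.41 over the 40 transporters and 0.41 over all protein-coding genes, and among the expressed it was 5.15 for the 17 transporters and 4.24 for the 9749 genes. The SLC38 family had 6 expressed genes of 11, SLC7 had 5 of 13, SLC36 had 2 of 4, SLC43 had 2 of 3, SLC3 had 1 of 2 and SLC1 had 1 of 7.

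**Figure D1:**
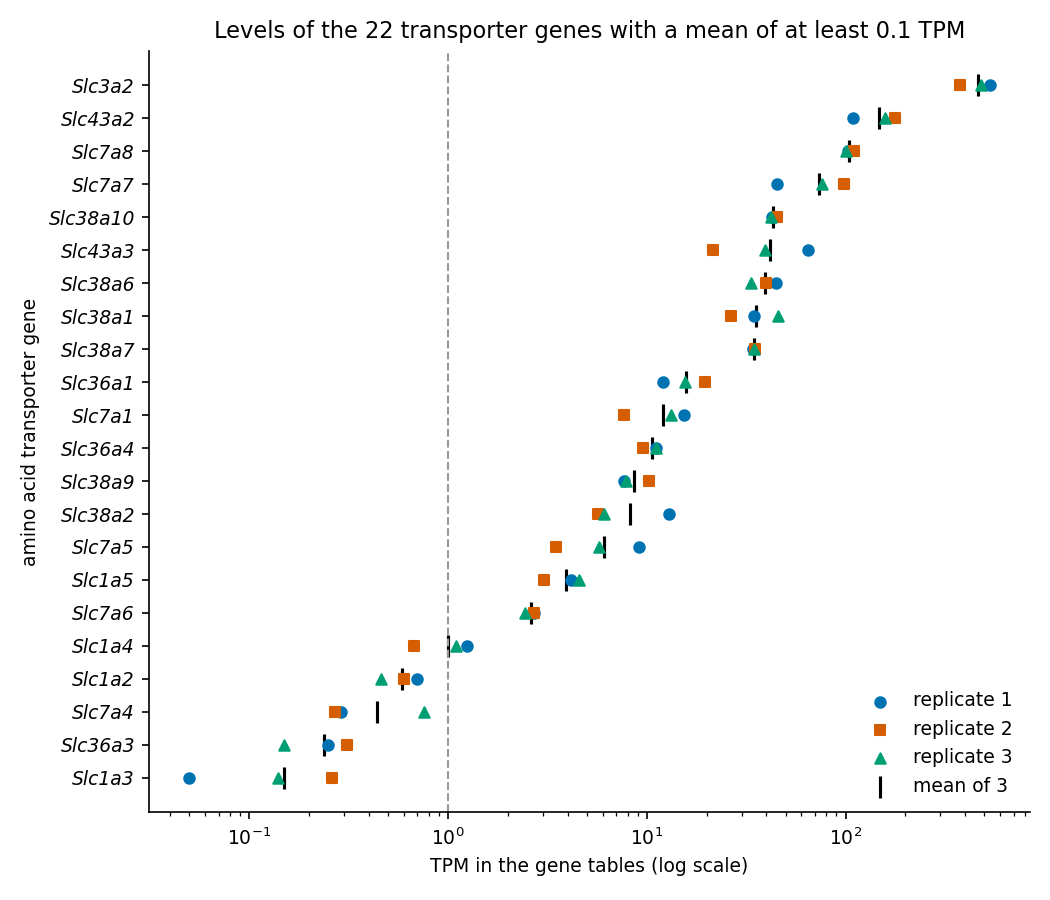
Levels of the 22 transporter genes with a mean of at least 0.1 TPM, on a log scale in TPM. Each symbol is 1 replicate, the vertical tick is the mean of 3, and the dashed line marks 1 TPM. Slc3a2 lies above all others in every replicate, and Slc1a4 is the only gene with replicates on both sides of 1 TPM.

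The heavy chain Slc3a2 was the most abundant of the 40 transcripts. Slc3a2 encodes 4F2hc (CD98), the surface glycoprotein that escorts its SLC7 partners to the plasma membrane, and spans chr19:8706882-8723369 on the minus strand. It was at 531, 375 and 483 TPM in replicates 1, 2 and 3 (463 ± 80.1, SD, n = 3), on 12601, 14225 and 18447 counts. It held 48.9%, 37.8% and 44.6% of the summed TPM of the 40 genes and ranked 303 among the 22028 protein-coding genes. Slc3a1, the heavy chain rBAT of kidney and gut, had 1 count in replicate 1 and none in the others.

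Among the light chains that pair with 4F2hc, Slc7a8 and Slc7a7 were high, Slc7a5 and Slc7a6 low, and Slc7a10 had no counts. Slc7a8 (chr14:54722209-54781946) encodes LAT2, an exchanger of neutral amino acids, and was at 103, 110.2 and 100.5 TPM (104 ± 5.09, SD, n = 3). Slc7a7 encodes y+LAT1, which exports arginine and lysine in exchange for neutral amino acids, and was at 45.4, 97.7 and 76.5 TPM (73.2 ± 26.3). Replicate 1 was the low sample for Slc7a7, while the Slc7a8 values differed by no more than 1.10 times in the gene tables. In the tables made directly from FASTQ files, Slc7a8 was at 66.4, 94.0 and 96.5 TPM (85.6 ± 16.7), lowest in replicate 1.

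Slc7a5 (chr8:121881150-121907694) encodes LAT1, the leucine exchanger of growing cells, and was at 9.09, 3.51 and 5.74 TPM (6.11 ± 2.81, SD, n = 3). Slc7a6 encodes y+LAT2, the close relative of y+LAT1, and was at 2.71, 2.70 and 2.44 TPM (2.62 ± 0.153). Slc7a8 exceeded Slc7a7, Slc7a7 exceeded Slc7a5 and Slc7a5 exceeded Slc7a6 in each of the 3 replicates. The summed light-chain TPM was 64.2%, 51.5% and 54.3% Slc7a8 and 28.4%, 45.6% and 41.3% Slc7a7. Slc7a5 made up 5.69%, 1.64% and 3.10% of it.

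Slc3a2 exceeded the sum of these 5 light chains in every replicate, 3.33 times in replicate 1, 1.75 times in replicate 2 and 2.61 times in replicate 3. The mean log2 ratio was 1.31 ± 0.47 (SD, n = 3), or 2.48-fold. As a ratio of expected counts, not divided by transcript length, it was 0.31 on the log2 scale and ran from -0.13 to 0.65, so the excess of Slc3a2 in every replicate holds per length only. With the cystine carrier Slc7a11, another 4F2hc partner, added to the light chains, the mean log2 ratio was 1.26 ± 0.43. Slc7a11 itself was at 9.32, 1.27 and 7.67 TPM, low in replicate 2. A ratio of transcripts is not a ratio of proteins.

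**Figure D2:**
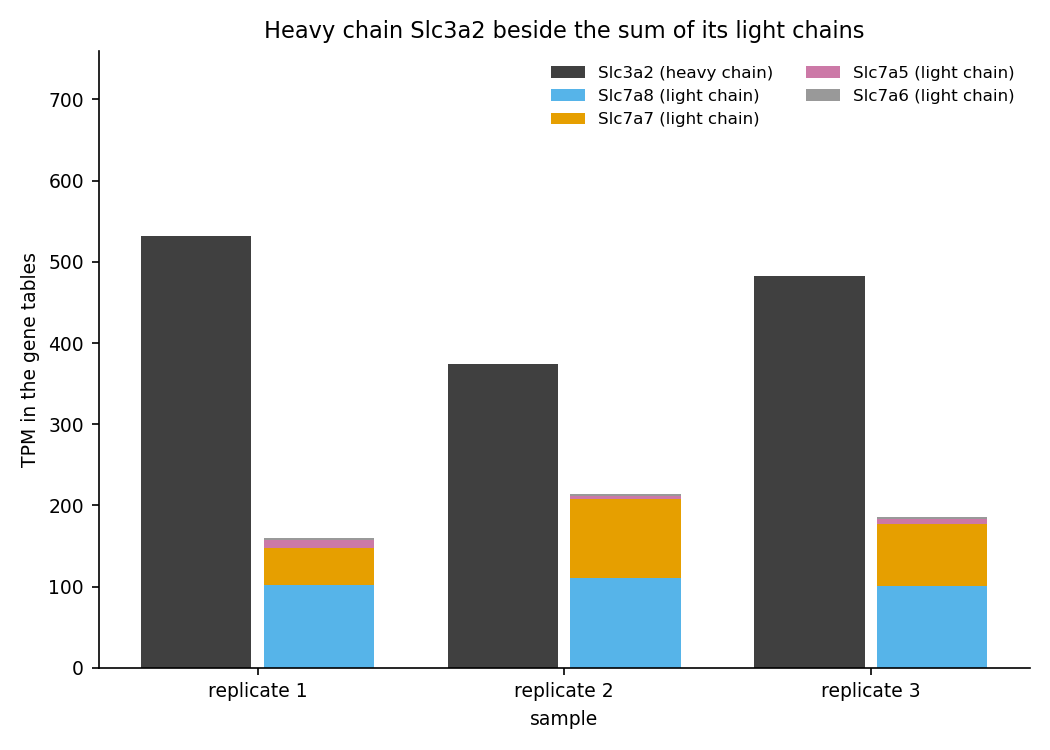
TPM of the heavy chain Slc3a2 (dark bar) beside the stacked TPM of its light chains (coloured bar) in each replicate, on an axis that starts at 0. The dark bar is 3.33, 1.75 and 2.61 times the coloured one in replicates 1, 2 and 3, and Slc7a8 and Slc7a7 fill most of the coloured bar.

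Other ratios within a sample were formed for pairs of related function. The log2 ratio of Slc7a5 to Slc7a8 was -3.50, -4.97 and -4.13 (mean -4.20 ± 0.74, SD, n = 3), and that of Slc7a5 to Slc7a6 was 1.75, 0.38 and 1.23 (mean 1.12 ± 0.69). The log2 ratio of Slc7a7 to Slc7a6, the pair of y+L carriers, was 4.07, 5.18 and 4.97 (mean 4.74 ± 0.59), a 26.7-fold excess of Slc7a7. By deposited TPM, every ratio kept 1 sign in all 3 replicates. An exact two-sided sign-flip permutation test on 3 replicates cannot give less than 0.25, which was the p, raw and adjusted, of each of the 11 ratios tested, so none could pass 0.05.

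Slc7a7 and Slc7a8 are neighbours on chromosome 14, 304 kb apart on the minus strand, and the Slc7a7 transcripts began at several places. Slc7a7 spans chr14:54369442-54417780 in the mm10 build, with the annotation GENCODE M21. Transcript Slc7a7-201, which begins at position 54409460, held 40.0%, 55.3% and 43.2% of the gene's TPM in the transcript table made directly from FASTQ files, and 53.5% ± 5.10 (SD, n = 3) in the table made from the transcriptome alignment. Slc7a7-202 and 1 other transcript, which begin at 54410202 to 54410216, held 23.7% ± 0.809 and 32.6% ± 2.01 in these tables. The third group of starts, with 3 transcripts beginning at 54417679 to 54417780, held 10.2% ± 2.22 and 10.4% ± 2.70. The Slc7a7-201, Slc7a7-202 and Slc7a7-209 models, which represent the first 3 groups, share a start codon at 54409004 and a reading frame of 510 codons, and differ chiefly before it.

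The sequence before a RefSeq start of each of these first 3 groups is shown because they lie behind different stretches of DNA. It is from the RefSeq promoter table (GRCm38.p6), which holds 250 bases before and 50 after a start, and is cut where an exon of the same gene reaches into the window. Capitals mark matches to the searched motifs described below. The windows are chr14:54409473-54409722, chr14:54410217-54410453 and chr14:54417781-54417952, all on the minus strand.
Slc7a7 before the RefSeq start at 54409472 (Slc7a7-201 group): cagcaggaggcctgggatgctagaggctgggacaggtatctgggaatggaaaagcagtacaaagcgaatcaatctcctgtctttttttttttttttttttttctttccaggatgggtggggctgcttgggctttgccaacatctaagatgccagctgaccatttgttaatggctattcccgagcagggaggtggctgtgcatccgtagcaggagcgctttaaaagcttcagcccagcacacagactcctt
Slc7a7 before the RefSeq start at 54410203 (Slc7a7-202 group): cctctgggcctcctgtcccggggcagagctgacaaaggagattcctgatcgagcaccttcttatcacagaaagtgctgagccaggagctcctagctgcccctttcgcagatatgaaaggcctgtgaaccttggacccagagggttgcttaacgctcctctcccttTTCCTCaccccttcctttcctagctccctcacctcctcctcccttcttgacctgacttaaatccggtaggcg
Slc7a7 before the RefSeq start at 54417702 (Slc7a7-209 group): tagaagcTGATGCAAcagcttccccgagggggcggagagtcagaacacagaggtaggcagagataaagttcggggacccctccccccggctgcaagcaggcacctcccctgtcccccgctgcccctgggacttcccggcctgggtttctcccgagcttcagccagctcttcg
The first window holds no match, the second TTCCTC (the reverse complement of GAGGAA) at -85 to -80 from its start, and the third TGATGCAA at -243 to -236 from its start. The start at 54417702 lies nearest to that of Slc7a7-206, at 54417699. RefSeq has another entry for the start of Slc7a7-209, at 54417679, whose 250 bases hold no TGATGNAA and hold GAGGAA at -20 to -15.

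Promoter motifs were counted over all 41 promoter entries of the 30 transporters in the table, in the 250 bases before the start on both strands. Of the 17 expressed transporters, 13 had an entry, and the rest were not searched. TGATGNAA, the composite element at which the stress factor ATF4 binds, was present in 2 entries, both of Slc7a7, or 4.88%, against 3.45% of 32851 entries in all. CACGTG, the E-box read by TFEB and MYC among others, was in 7 entries (17.1% against 6.02%), of which Slc36a1 and Slc38a7 belong to expressed genes and Slc1a6, Slc1a7, Slc7a14, Slc38a5 and Slc43a1 to genes with no counts in the gene tables. GAGGAA, the core of sites for the myeloid factor PU.1, was in 11 entries (26.8% against 23.3%), and the element of interferon-stimulated genes, TTTC, any 2 bases, then TTTC, in 0 against 2.98%. No match overlapped another in the printed windows. A match in these windows is a description of letters and shows no binding.

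Cationic carriers of SLC7, which bring arginine and lysine into cells, were represented by Slc7a1 alone. Slc7a1 (chr5:148327410-148399904) encodes CAT1 and was at 15.4, 7.66 and 13.2 TPM (12.1 ± 4.0, SD, n = 3), with replicate 2 low. The related Slc7a2 (CAT2) was at 20.2, 8.47 and 17.9 TPM, and the log2 ratio of Slc7a1 to Slc7a2 was -0.39, -0.15 and -0.44 (mean -0.32 ± 0.16). Slc7a2 was therefore the higher of this pair in each replicate, and both were low in replicate 2. Slc7a3 (CAT3) had 3, 3 and 1 counts, Slc7a14 none, and Slc7a4, whose protein has no settled substrate, was at 0.29, 0.27 and 0.76 TPM.

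SLC43 supplied the second most abundant of the 40 transcripts. Slc43a2, at chr11:75531694-75577575 on the plus strand, encodes LAT4, which carries large neutral amino acids down their gradient without exchange. It was at 109.0, 176 and 159 TPM (148 ± 34.9, SD, n = 3), on 8642, 21705 and 20671 counts, with replicate 1 low. Slc43a1, which encodes the similar LAT3, had 0 counts in all 3 libraries, so no ratio was formed.

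Slc43a3 (chr2:84936579-84958509), which carries purine bases rather than amino acids, was at 64.7, 21.5 and 39.5 TPM (41.9 ± 21.7, SD, n = 3). Its highest value was 3.01 times its lowest, the widest spread of the 17 expressed genes, with replicate 1 high and replicate 2 low. Slc43a3 lies 73.0 kb from Slc43a1 on chromosome 2, both on the plus strand.

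Slc43a2 transcripts also began at separate places, but 1 group of starts dominated. The group of 4 transcripts beginning at 75531694 to 75531743 on the plus strand of chromosome 11 held 78.4%, 82.3% and 82.8% of the gene's TPM in the FASTQ-made table and 83.9% ± 2.06 (SD, n = 3) in the alignment table. The group of 2 beginning at 75532112 to 75532138 held 14.1% ± 1.10 and 13.1% ± 1.46. Within the first group, Slc43a2-201 and Slc43a2-202 have the same coding sequence of 568 codons and lengths of 6891 and 3236 bases, and held 36.8% ± 5.71 and 31.2% ± 4.02 in the FASTQ-made table against 52.4% ± 4.32 and 19.0% ± 4.09 in the alignment table. The split between the long and the short form thus depended on the table, whereas the split between start groups did so little.

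The window before the dominant start, chr11:75531444-75531693 on the plus strand of GRCm38.p6, is shown with its match in capitals, TTCCTC, at -165 to -160 from the start.
Slc43a2 before the main start: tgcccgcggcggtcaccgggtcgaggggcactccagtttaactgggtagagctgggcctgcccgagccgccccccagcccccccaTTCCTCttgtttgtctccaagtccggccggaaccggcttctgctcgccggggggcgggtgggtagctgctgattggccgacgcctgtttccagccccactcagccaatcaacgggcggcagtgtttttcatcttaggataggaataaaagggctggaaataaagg
An antisense gene, Gm45606, covers this window and 1378 bases of Slc43a2, and was at 4.06, 4.92 and 4.73 TPM. Whether counting used strand is not stated, so reads in that overlap cannot be assigned to either gene. The same holds for 232 bases that Slc7a7 shares with Oxa1l on the opposite strand (18.0, 22.0 and 19.3 TPM). Of the 31-base sequences in Slc43a2 transcripts, 9.43% occur in transcripts of other genes.

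SLC38 had the most expressed genes of any family here, and 4 of them had means between 34.4 and 43.4 TPM. Slc38a10 (chr11:120103960-120151346) was at 42.6, 45.3 and 42.3 TPM (43.4 ± 1.66, SD, n = 3) and Slc38a6 at 44.8, 39.8 and 33.4 TPM (39.3 ± 5.71). Slc38a1 encodes SNAT1, a sodium-coupled glutamine importer of the plasma membrane, and was at 34.6, 26.6 and 45.6 TPM (35.6 ± 9.54). Slc38a7 encodes SNAT7, which releases glutamine from lysosomes, and was at 34.1, 34.8 and 34.4 TPM (34.4 ± 0.390), the smallest relative spread of the 17 in the gene tables. In the FASTQ-made tables Slc38a7 was at 24.5, 31.9 and 35.7 TPM (30.7 ± 5.66). The range of Slc38a1 overlapped those of the other 3 genes and that of Slc38a6 overlapped those of Slc38a10 and Slc38a7, and in the FASTQ-made tables the mean of Slc38a6 (56.3 TPM) was above that of Slc38a10 (41.7 TPM), so the order of the 4 is not resolved by these samples.

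The other expressed SLC38 genes were lower. Slc38a2 (chr15:96687392-96699730) encodes SNAT2, the importer that cells raise when amino acids run short, and was at 12.9, 5.69 and 6.06 TPM (8.22 ± 4.07, SD, n = 3), with replicate 1 high. Slc38a9 (chr13:112660751-112738749) encodes the lysosomal arginine sensor that passes its signal to mTORC1, and was at 7.70, 10.3 and 7.82 TPM (8.60 ± 1.46). Slc38a1 exceeded Slc38a2 in each replicate, with log2 ratios of Slc38a2 to Slc38a1 of -1.42, -2.22 and -2.91 (mean -2.18 ± 0.75). The log2 ratio of Slc38a9 to Slc38a7 was -2.14, -1.76 and -2.14 (mean -2.01 ± 0.22).

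Slc38a1 and Slc38a2 lie 44.5 kb apart on chromosome 15, with Slc38a4 295 kb beyond Slc38a2. Slc38a4 had 1 count in replicate 2 and none elsewhere. Slc38a3, Slc38a5 and Slc38a11 had 0 counts in every library, and Slc38a8 had 1 count in replicate 1.

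For Slc38a10 the transcript tables named different leading transcripts that differ by a short coding exon. Slc38a10-216 held 62.4%, 63.4% and 61.7% of the gene's TPM in the FASTQ-made table and 0%, 6.8% and 6.6% in the alignment table, where Slc38a10-201 held 79.7%, 69.3% and 69.5%. Slc38a10-201 held 10.5% ± 2.10 (SD, n = 3) in the FASTQ-made table. Slc38a10-216 contains an exon of 24 bases at chr11:120109372-120109395, minus strand of mm10, that Slc38a10-201 lacks, and the coding sequences are 1090 and 1082 codons long. The coding stretch around the junction is shown because these 24 bases, in capitals, are what tells the forms apart there; 45 bases on each side are in lower case.
Slc38a10-216: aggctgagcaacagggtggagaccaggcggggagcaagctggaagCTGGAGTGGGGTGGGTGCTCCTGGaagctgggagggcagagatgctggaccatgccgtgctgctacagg
Slc38a10-201: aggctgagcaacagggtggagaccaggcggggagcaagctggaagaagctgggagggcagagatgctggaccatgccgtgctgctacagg
The models also differ in length, 4052 against 4554 bases, so the tables' disagreement cannot be placed on the exon alone. Slc38a10-204 has the ends of Slc38a10-201 but 17 exons against 16, with 4578 bases and 1090 codons. It held 0.081% ± 0.14 in the FASTQ-made table and 1.02% ± 0.378 in the alignment table, below Slc38a10-201 in both. Which form these macrophages used was not resolved by the deposited values.

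Slc38a9 was the expressed gene with the smallest share of TPM in coding transcripts. Its only protein-coding transcript, Slc38a9-201 with 560 codons, held 33.1%, 38.5% and 39.0% of the gene's TPM in the FASTQ-made table and 51.4% ± 1.20 (SD, n = 3) in the alignment table. Slc38a9-202, annotated as a target of nonsense-mediated decay, held 38.2%, 29.9% and 32.9% in the first table and 17.4% ± 4.39 in the second. The gene-level TPM of 8.60 thus overstates the coding transcript, by an amount that differs between the tables.

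Slc38a9-202 includes an exon of 85 bases at chr13:112684062-112684146 on the plus strand of mm10, in which the reading frame ends after 16 bases. The coding end of Slc38a9-202 is shown with its stop codon TGA in capitals, above the same place in Slc38a9-201, where the frame continues into the next exon; the first 45 bases of both lines are the same exon.
Slc38a9-202: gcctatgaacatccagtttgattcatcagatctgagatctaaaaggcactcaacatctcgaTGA
Slc38a9-201: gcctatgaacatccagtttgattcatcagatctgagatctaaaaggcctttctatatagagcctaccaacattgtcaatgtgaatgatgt
The reading frame of Slc38a9-202 is 42 codons long. An antisense gene, Gm47827, overlaps 16558 bases of Slc38a9 and had 0, 0 and 0.270 TPM.

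Several SLC36 carriers act at lysosomes. Slc36a1 encodes PAT1, which moves small amino acids together with protons. It was at 12.1, 19.5 and 15.6 TPM (15.7 ± 3.73, SD, n = 3), low in replicate 1. Slc36a4 encodes PAT4 and was at 11.2, 9.60 and 11.1 TPM (10.6 ± 0.901). The log2 ratio of Slc36a1 to Slc36a4 was 0.11, 1.02 and 0.48 (mean 0.54 ± 0.46), so the genes were nearly level in replicate 1, where the ratio was below 0 in the FASTQ-made tables (-0.10). Slc36a3 was at 0.25, 0.31 and 0.15 TPM, and Slc36a2 had 0 counts, although they lie 52.6 and 19.3 kb from Slc36a1 on chromosome 11.

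SLC1 was the family with the least expression. Slc1a5 encodes ASCT2, a sodium-dependent exchanger of glutamine and other neutral amino acids, and was at 4.17, 3.03 and 4.56 TPM (3.92 ± 0.795, SD, n = 3). Slc1a4, the related ASCT1, was at 1.25, 0.67 and 1.09 TPM, just short of the threshold through replicate 2. The log2 ratio of Slc1a5 to Slc1a4 was 1.74, 2.18 and 2.06 (mean 1.99 ± 0.23). Slc1a5-202, a transcript with a retained intron, held 20.9%, 22.4% and 4.70% of the Slc1a5 TPM in the FASTQ-made table.

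Glutamate carriers of the SLC1 family were all below 1 TPM in every replicate. Slc1a2 (GLT-1) was at 0.70, 0.60 and 0.46 TPM on 25, 17 and 25 counts, and Slc1a3 (GLAST) at 0.05, 0.26 and 0.14 TPM on 3, 26 and 14 counts. The log2 ratio of Slc1a3 to Slc1a2 was -3.81, -1.21 and -1.72 (mean -2.24 ± 1.38), with counts in replicate 1 at the limit that a count of 0 allows. Slc1a1 (EAAC1) had 10, 2 and 5 counts, and 31.5% of its 31-base sequences occur in transcripts of other genes. Slc1a6 and Slc1a7, carriers of cerebellum and retina, had no counts.

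In all, 23 transporters were not expressed by the threshold used. Of these, 22 were below 1 TPM in every replicate and Slc1a4 was the exception. Of the 23, 11 had 0 counts in all 3 gene tables: Slc1a6, Slc1a7, Slc7a9, Slc7a10, Slc7a12, Slc7a14, Slc36a2, Slc38a3, Slc38a5, Slc38a11 and Slc43a1. The remaining 12 had between 1 count in a single library and 103 counts. Slc7a9, Slc7a12, Slc7a13 and Slc7a15, light chains chiefly of kidney and other epithelia or little studied, were at 0.040 TPM or less.

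The spread between replicates was described next, since the samples form 1 group. The highest replicate was at least 2 times the lowest for 5 of the 17 expressed transporters, Slc7a1, Slc7a5, Slc7a7, Slc38a2 and Slc43a3. Among 9749 expressed protein-coding genes the share was 6.49%. Without replicate 1 the count was 0 and without replicate 2 it was 1, so the count rests on the contrast between these libraries. Slc7a7 was lowest in replicate 1 and the other 4 were lowest in replicate 2.

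**Figure D3:**
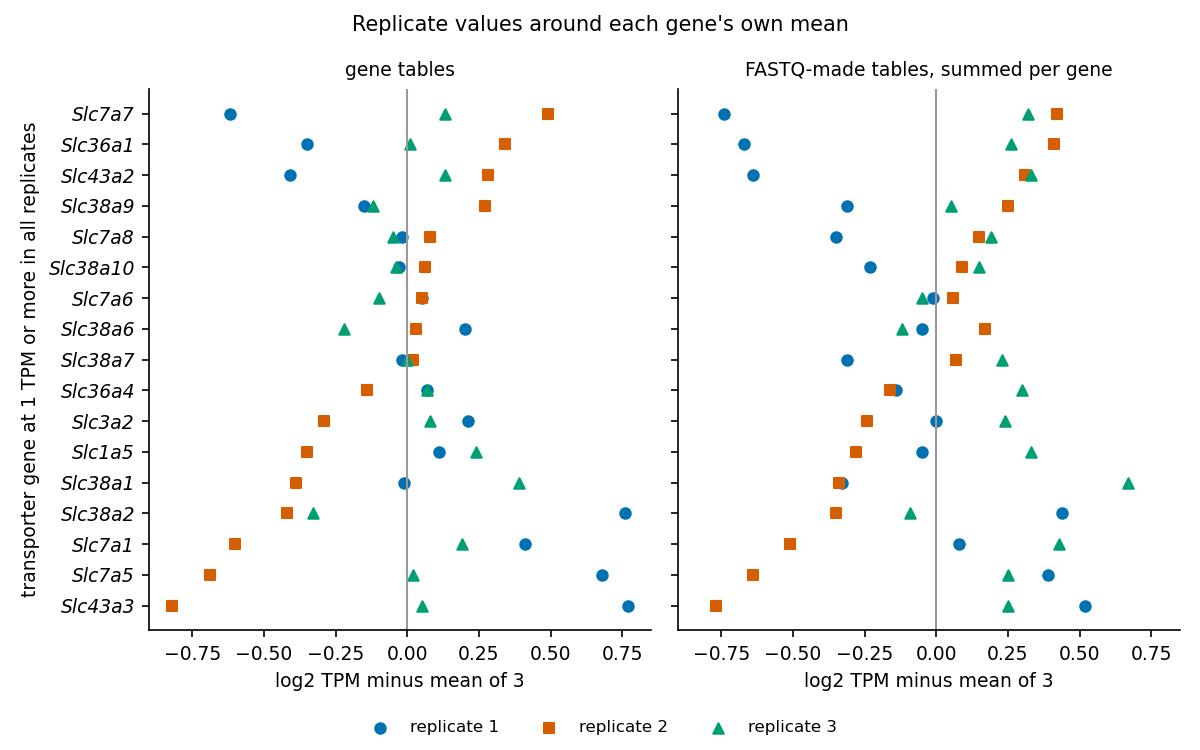
Log2 TPM of each replicate minus the gene's mean over 3, for the 17 expressed transporters, in the gene tables (left) and in the FASTQ-made tables summed per gene (right). In both panels, Slc43a3, Slc7a5 and Slc7a1 lie far to the left in replicate 2 and Slc7a7 in replicate 1, while Slc38a2 lies to the right in replicate 1.

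The 17 genes were sorted by their lowest library. In replicate 2, 8 were lowest by TPM, by CPM and in the FASTQ-made tables alike: Slc1a5, Slc3a2, Slc7a1, Slc7a5, Slc36a4, Slc38a1, Slc38a2 and Slc43a3. In replicate 1, 5 were lowest on all 3 scales: Slc7a7, Slc36a1, Slc38a7, Slc38a9 and Slc43a2. The lowest library of the other 4 was not the same on all scales or was replicate 3. These counts were not made over all expressed protein-coding genes, so they describe the 17 genes only. Some placements were near ties. By log2 TPM minus its mean, Slc38a9 was at -0.15 in replicate 1 and -0.12 in replicate 3. On that scale Slc38a7 was at -0.02, 0.02 and -0.00 in replicates 1, 2 and 3. Slc36a4 in the FASTQ-made tables was at -0.14 in replicate 1 and -0.16 in replicate 2. The FASTQ-made tables shifted the median of all expressed protein-coding genes by -0.25, 0.06 and 0.20 on the log2 scale in replicates 1, 2 and 3, and with them the highest replicate of Slc3a2, Slc7a1 and Slc36a4 moved from 1 to 3 and that of Slc7a8, Slc38a7, Slc38a10 and Slc43a2 from 2 to 3. The highest replicate was the same on all 3 scales for 8 of the 17 genes. The shift of -0.25 also favours replicate 1 as the lowest library in the FASTQ-made tables. TPM and CPM both come from the gene tables, so these scales are not independent. Replicate 2 was also the library with the highest S100a8 and S100a9, at 39.4 and 58.0 TPM against 4.20 to 6.84 TPM in the other libraries. Of the other neutrophil markers, Camp was at 0.76, 0.97 and 0.24 TPM and Mpo at 0.17, 0.18 and 0 TPM. Elane was at 0, 0 and 0.11 TPM and Ly6g at 0. Which cells made S100a8 and S100a9, and any link to the transporter values, was not tested.

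No transporter passed the test for more spread between replicates than genes of its level have. The one-sided excess-variance test of edgeR's quasi-likelihood fit called 0 of 11992 genes at an adjusted p of 0.05, a share of 0%, and 0 of the 19 transporters tested. At an unadjusted p under 0.05 it gave 627 genes, or 5.23%, and 5 transporters, the same 5 as above by the 2-fold count. Their unadjusted edgeR p-values were 0.00372 for Slc43a3, 0.0110 for Slc38a2, 0.0192 for Slc7a5, 0.0257 for Slc7a7 and 0.0261 for Slc7a1, and the lowest adjusted p was 0.818. With limma on log2(TPM + 1) instead, 0 genes were called and 560 had an unadjusted p under 0.05, 4 of them transporters. Without the filter on low counts, edgeR called 143 of 20285 genes, Slc43a3 among them with an adjusted p of 0.0191. The prior of the filtered fit came from the spread of these same genes, with 4.14 prior degrees of freedom, on 3 samples. The unadjusted share over all genes is thus largely set by the fit. The lack of adjusted calls does not show that the transporters spread no more than other genes.

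Expression of the pathway around these carriers was read from lists of genes chosen by function. Over all protein-coding genes 44.3% were expressed, and 5.23% of all genes tested had an unadjusted p under 0.05 in the edgeR test. Of 31 genes that report amino acids to mTORC1 (of 32 listed), 28 were expressed, and in the excess-variance test of edgeR 0 of 30 tested were called, with Sesn1 and Sesn2 at an unadjusted p under 0.05. Lamtor1, a subunit of the Ragulator scaffold on lysosomes, was at 200.4, 228 and 224 TPM, and Lamtor5, of the same scaffold, at 158, 212 and 204 TPM. Castor1, a cytosolic arginine sensor, was below 1 TPM in every replicate at 0.570, 0.750 and 0.970 TPM. Castor2, on the same list, was at 5.02, 6.75 and 4.71 TPM, and the arginine sensor Slc38a9 was at 7.70, 10.3 and 7.82 TPM as above.

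GCN2 and its effector ATF4 form the branch that answers amino acid shortage, and Slc3a2, Slc7a1, Slc7a5, Slc7a11 and Slc38a2 are known ATF4 targets. Of 22 genes on that list, 20 were expressed, and 7 of these spread at least 2-fold, against 6.49% of all expressed protein-coding genes. Nupr1, a stress-induced nuclear protein, was at 479, 356 and 451 TPM, the stress factor Ddit3 (CHOP), summed over 2 gene identifiers, at 455.9, 222.5 and 281.3 TPM, and Atf4 at 224, 135 and 129 TPM. In the excess-variance test 0 of 20 list genes tested were called, and 8 had an unadjusted p under 0.05, against 5.23% of all genes. Whether the list differs from other genes was not tested.

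Of 36 other amino acid and peptide carriers, 16 were expressed. Slc15a3, a lysosomal carrier of histidine and peptides, was at 780, 864 and 888 TPM, above Slc3a2, and the taurine carrier Slc6a6 was at 258, 266 and 325 TPM. Of 18 genes of amino acid use, 13 were expressed, among them Nos2, which makes nitric oxide from arginine, at 86.6, 30.7 and 90.3 TPM, and Odc1, which makes the polyamine putrescine from ornithine, at 51.7, 67.7 and 87.3 TPM. In these lists 0 of 17 and 0 of 14 genes tested were called by the excess-variance test, and 3 and 5 had an unadjusted p under 0.05, against 5.23% of all genes.

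The leading transcript of all 17 expressed transporters was protein coding. In 6 genes it held at least 80% of the gene's TPM in the FASTQ-made table: Slc7a1, Slc7a5, Slc7a8, Slc36a1, Slc36a4 and Slc38a2. The tables named the same leading transcript for 15 genes and different ones for Slc38a1 and Slc38a10. The Slc7a8 leading transcript held 96.9% ± 0.911 and 97.1% ± 0.939 in these tables, so here the choice of table made no difference beyond the replicate spread.

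**Figure D4:**
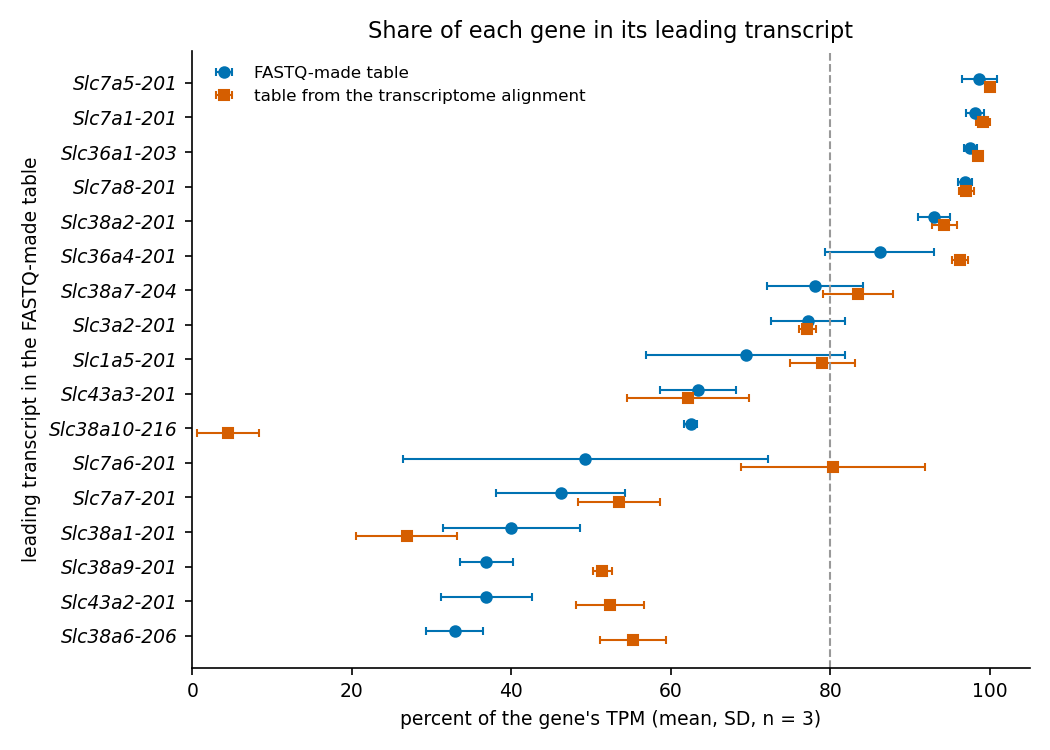
Percent of each gene's TPM held by its leading transcript of the FASTQ-made table, in that table (circles) and in the table from the transcriptome alignment (squares), as mean and SD over 3 replicates. The dashed line marks 80%. Slc38a10-216 is the transcript on which the tables differ most, at 62.5% and 4.45%.

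The leading Slc3a2 transcript had nearly the same share in both tables, whereas smaller ones differed. Slc3a2-201, with 526 codons, held 77.2% ± 4.62 and 77.1% ± 1.08 (SD, n = 3). Slc3a2-207, which begins at 8712985 instead of 8713879 on the minus strand and has a reading frame of 303 codons, held 14.3% ± 0.405 and 20.4% ± 1.26, and Slc3a2-203 held 5.50% ± 3.89 and 0%. For Slc38a1, Slc38a1-201 and Slc38a1-202 have the same coding sequence and held 40.0% ± 8.60 and 32.7% ± 2.00 in the FASTQ-made table against 26.9% ± 6.34 and 55.5% ± 3.63 in the alignment table, so the leading transcript changed but not the protein it encodes.

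The other transporters without a dominant transcript were Slc38a6, Slc38a7, Slc43a3, Slc7a6 and Slc1a5. Slc38a6-206 held 32.9% ± 3.57 and 55.3% ± 4.12 of its gene in these tables, Slc38a7-204 held 78.0% ± 6.02 and 83.5% ± 4.40, and Slc43a3-201 held 63.4% ± 4.76 and 62.2% ± 7.63. Slc7a6-201 held 28.4%, 45.7% and 73.8% in the FASTQ-made table and 80.3% ± 11.5 in the alignment table, a wide spread on 127 to 226 counts. Slc1a5-201 held 69.4% ± 12.4 and 79.0% ± 4.09. Of the 31-base sequences of Slc38a6 transcripts, 40.7% occur in transcripts of other genes, the largest share among the 17, and its level is uncertain to that extent; its mean was 39.3 TPM in the gene tables and 56.3 TPM in the FASTQ-made tables.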

How the data were processed

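Polyadenylated RNA from 3 macrophage samples was analysed from the deposited tables. Per the file headers, expected counts and TPM fill the gene tables, and estimated counts with TPM the FASTQ-made transcript tables; the authors derived the first from a transcriptome alignment, per the deposited file lists, on mm10 with annotation M21. The names of the programs, and whether counting used strand, were not given in the sources used here. TPM was used as deposited. Rows that match no mouse gene of annotation M21 (0.107% to 0.178% of counts) were left out of the gene numbers and the edgeR fit. They were kept in the library totals and in CPM. Expected counts were rounded for edgeR 4.0.16 in R 4.3.3 (filterByExpr, TMM, intercept only, F of gene dispersion over the trended prior, Benjamini-Hochberg at 0.05), and limma 3.58.1 and DESeq2 1.42.0 size factors were alternatives. The edgeR test was tried on simulated data in which genes of a level had the same dispersion. The changes put in were larger than the spread of any expressed transporter, so that trial does not bear on smaller spreads. Python 3.11.15 with pandas 2.3.3 made the rest. Starts within 100 bases were grouped, and sharing was counted over 31-base sequences. Members and lists were chosen with earlier results of these data known. Every member is named. Transcripts were named where the leading one held under 80% of its gene or differed between tables, and of the lists the highest genes were named. Castor1 and Castor2, outside that rule, were chosen after their values were seen.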

Additional observations from a re-analysis of the deposited data

How the results depend on the processing

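Of 261 values recomputed under another setting, 231 were classed as unchanged. These kept their direction, moved by less than the replicate SD or, for counts of genes, changed little. A count of 3 that became 2 or 4, or of 6 that became 8, was in that class. Some of the 231 could not have changed. Rescaling TPM leaves a ratio as it was. A ratio with 1 sign in all 3 replicates also keeps its direction when a replicate is left out. The number expressed was 17 to 18. The number at 100 TPM was 2 in the FASTQ-made tables, where Slc7a8 was at 85.6 TPM, and 4 with a threshold of 50 TPM. The means of all 11 ratios kept their direction under each alternative run, but single replicates did not: on expected counts Slc3a2 to light chains (mean 0.31) reached -0.13, with Slc7a11 added -0.16 (mean 0.16), Slc36a1 to Slc36a4 -0.20 (and -0.10 in the FASTQ-made tables) and Slc1a3 to Slc1a2 0.61. The count with a 2-fold spread ranged from 0 to 5 with a library left out, 0 without replicate 1 and 1 without replicate 2, and was 8 with at least 3 counts in every replicate as the filter. The median level of 0.41 was 0.38 in the FASTQ-made tables, 0.45 after rescaling to nuclear protein-coding genes, 0.36 to 0.44 with a library left out and -1.30 with a pseudocount of 0.1, which lowers the log of every low gene by its construction. Without the count filter, the excess-variance test of edgeR called 143 genes and 1 transporter, Slc43a3; DESeq2 size factors, limma and each left-out library gave 0. For single genes, 11 of 85 levels and 8 of 68 leading transcript shares moved by more than the SD. With 3 replicates, leaving 1 out cannot move a mean by more than the SD, so those runs were bound to count as unchanged. All 11 levels that moved did so in the FASTQ-made or rescaled TPM, and all 8 shares in the alignment table. The cause of these moves was not tested. With 3 samples of 1 group, no effect of lipid A can be read. Low transporters rest on few counts.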
